A study of Mus musculus with 16 samples.

Results

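The genes examined here are 8 regulators of axial elongation, the process by which the embryo lays down trunk and tail from head to tail end. They are Cdx1, Cdx2, Cdx4, Nkx1-2, Gdf11, Lin28a, Lin28b and Sall4, taken by symbol from the 26411 genes of the count files. All 8 of the 8 passed the filter on low counts, as did 15679 genes in all. RNA had been sequenced from 16 whole embryos at embryonic day 9.5 (E9.5), 4 for each of 4 genotypes. Kat6a+/+Kat6b+/+ embryos are called wild-type. Kat6a–/–Kat6b+/+ embryos, called Kat6a-null, lack the histone acetyltransferase gene Kat6a on both chromosomes and have intact Kat6b, its close relative. Kat6a+/+Tg(Kat6b) embryos, called Tg(Kat6b), have intact Kat6a and a transgene with the whole Kat6b gene and its flanks on a bacterial artificial chromosome. Kat6a–/–Tg(Kat6b) embryos, called null Tg(Kat6b), lack Kat6a and carry that transgene. The transgene is a single multicopy insertion under the promoter of Kat6b itself, and all embryos share an FVB x BALB/c hybrid background. Each embryo is a separate animal.

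Axial elongation is fed by progenitors in the posterior growth zone and later the tailbud, which are kept by WNT and FGF signals. The CDX homeodomain proteins act in these cells and activate the trunk Hox genes, GDF11 drives the switch from trunk to tail with the most posterior Hox genes, and the LIN28 proteins block maturation of let-7 microRNAs and hold cells in an early state. The comparisons address whether extra Kat6b makes up for missing Kat6a in the RNA of the embryo.

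Between 14407277 and 45665680 counts were assigned to genes per embryo, with the lowest total in wild-type replicate 4. Levels are given as CPM, the counts of a gene relative to the library size scaled by edgeR's TMM method, or as RPKM, which also divides by gene length. Kat6b was at 42.6 to 51.0 CPM in the 8 embryos without the transgene and 155 to 227 CPM in the 8 with it. Kat6a was at 138 to 218 CPM in all embryos, but the null allele lacks only internal exons, so gene-wide counts do not check it. Litters 801 and 803 each gave 1 wild-type and 2 Kat6a-null embryos. Litters 2597 and 2598 each gave 1 wild-type embryo and the Tg(Kat6b) embryos, so the latter share no litter with the Kat6a-null embryos. The null Tg(Kat6b) embryos came from litters 483 and 498, which held no other genotype, so for them litter and genotype cannot be told apart.

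The levels of the 8 genes span a wide range. In wild-type embryos Lin28a was highest with a median of 87.2 RPKM (76.4 to 112, n = 4). Lin28b followed with 37.4 RPKM (34.1 to 40.6), then Sall4, a zinc-finger transcription factor of pluripotent and axial progenitors, with 20.4 (16.2 to 23.2), and Gdf11 with 11.7 (10.4 to 12.1). The ranges of these 4 neighbours did not overlap. Cdx2 (3.44 RPKM), Cdx4 (3.28), Cdx1 (2.88) and Nkx1-2 (1.93), a homeobox gene of neuromesodermal progenitors, formed the low end, and their wild-type ranges overlapped one another. In RNA of whole embryos, fewer cells of a type and less RNA per cell cannot be told apart.

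**Figure D1:**
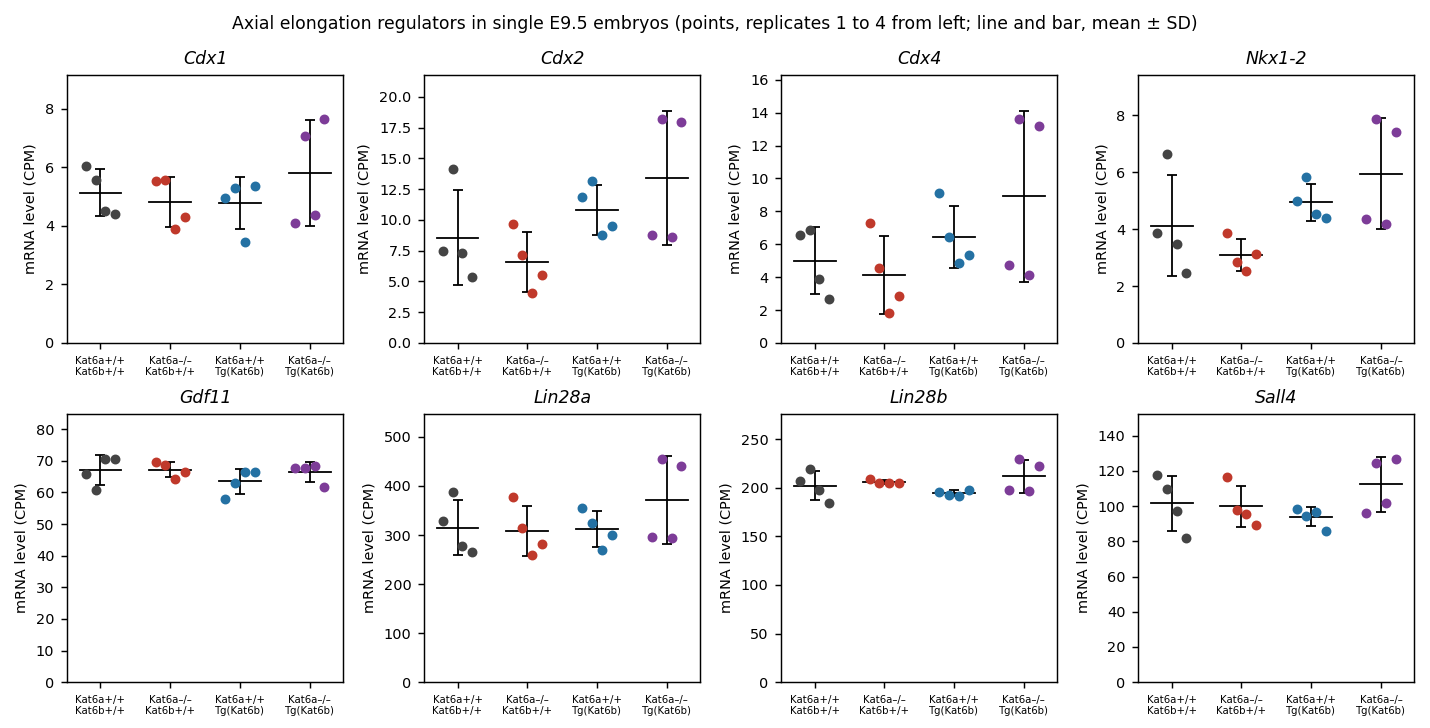
TMM-normalized CPM (y axis, from 0) of the 8 genes in the 16 embryos (points, by genotype on the x axis), with the mean and SD of each genotype as line and bar. Replicates 2 and 4 of null Tg(Kat6b) stand highest for Cdx1, Cdx2, Cdx4, Nkx1-2, Lin28a, Lin28b and Sall4, while Gdf11 stays between 57.8 and 70.7 CPM.

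Cdx2, the caudal homeobox gene of the posterior growth zone, was at 7.44, 14.1, 7.32 and 5.35 CPM in wild-type replicates 1 to 4. In Kat6a-null embryos it was at 9.68, 7.12, 4.02 and 5.52 CPM, and in Tg(Kat6b) embryos at 11.9, 13.2, 8.78 and 9.47 CPM. The level was 8.75, 18.2, 8.63 and 17.99 CPM in null Tg(Kat6b) embryos. Of the 4 lowest embryos of all, 3 are Kat6a-null. Every Tg(Kat6b) embryo lies above 3 of the 4 wild-type embryos, and the null Tg(Kat6b) embryos fall into a low and a high pair. In every pair of genotypes the ranges overlap.

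The test was edgeR's quasi-likelihood test over all 16 embryos with 2 surrogate variables and an FDR threshold of 0.05 over all tested genes. Surrogate variables are covariates estimated from all genes to take up variation beyond genotype, but they can still differ between genotypes. Cdx2 was downregulated in Kat6a-null vs. wild-type embryos by a log2 fold change of -0.42 ± 0.106 (SE; edgeR FDR = 0.0433). It was upregulated in Tg(Kat6b) vs. wild-type embryos by 0.51 ± 0.103 (edgeR FDR = 0.0423). It was also upregulated, by 0.66 ± 0.104, in null Tg(Kat6b) vs. Kat6a-null embryos (edgeR FDR = 0.000829). The largest difference was between Tg(Kat6b) and Kat6a-null embryos, where Cdx2 was higher by 0.93 ± 0.102 (edgeR FDR = 7.10e-06). In null Tg(Kat6b) vs. wild-type embryos the log2 fold change was 0.24 ± 0.104 (edgeR FDR = 0.337) and in null Tg(Kat6b) vs. Tg(Kat6b) embryos -0.27 ± 0.107 (edgeR FDR = 0.163), neither past the threshold. These comparisons share groups and are not independent.

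The adjustment carries these calls. Without surrogate variables the standard errors of the Cdx2 comparisons were 0.348 to 0.366 in the 4 comparisons called, and none of them passed. The log2 fold changes were then -0.38 (edgeR FDR = 0.713) in Kat6a-null vs. wild-type, 0.33 (edgeR FDR = 0.857) in Tg(Kat6b) vs. wild-type, 1.04 (edgeR FDR = 0.112) in null Tg(Kat6b) vs. Kat6a-null and 0.72 (edgeR FDR = 0.233) in Tg(Kat6b) vs. Kat6a-null embryos. In null Tg(Kat6b) vs. wild-type embryos, called in neither fit, Cdx2 was at 0.66 ± 0.347 without surrogate variables (edgeR FDR = 0.485) and 0.24 with them. Cdx4 was at 0.84 without (edgeR FDR = 0.527) and 0.18 with them, and Nkx1-2 at 0.54 (edgeR FDR = 0.409) and 0.24. The sign of the Cdx2 change differed between fits in null Tg(Kat6b) vs. Tg(Kat6b) embryos, at -0.27 with and 0.32 without surrogate variables. It differed likewise for Cdx4 (-0.37 and 0.49) and Nkx1-2 (-0.19 and 0.28). The second surrogate variable was not balanced between these genotypes. It was at 0.02, -0.41, 0.03 and -0.33 in null Tg(Kat6b) and at -0.16, 0.13, 0.25 and 0.26 in Tg(Kat6b) replicates 1 to 4. Leaving out 1 embryo at a time, Cdx2 was called in 16 of 16 fits for null Tg(Kat6b) vs. Kat6a-null and for Tg(Kat6b) vs. Kat6a-null, but in 7 of 16 for Kat6a-null vs. wild-type and in 3 of 16 for Tg(Kat6b) vs. wild-type. The Kat6a-null vs. wild-type call was lost without wild-type replicate 1, 2 or 3, Kat6a-null replicate 2, 3 or 4, or null Tg(Kat6b) replicate 1, 3 or 4. The Tg(Kat6b) vs. wild-type call remained only without Kat6a-null replicate 1 or 3 or null Tg(Kat6b) replicate 3. Both calls were also lost with litter or replicate number as a block, as given in the closing section.

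Cdx4, an X-linked caudal gene that acts with Cdx2, followed the same embryos. It was at 6.57, 6.85, 3.88 and 2.68 CPM in wild-type embryos, at 7.30, 4.56, 1.83 and 2.85 CPM in Kat6a-null, at 9.13, 6.44, 4.86 and 5.37 CPM in Tg(Kat6b) and at 4.71, 13.6, 4.13 and 13.2 CPM in null Tg(Kat6b) embryos. The highest values were again null Tg(Kat6b) replicates 2 and 4, and the lowest was Kat6a-null replicate 3, where 31 counts give a counting error of 17.96%. Cdx4 was higher in Tg(Kat6b) vs. Kat6a-null embryos by a log2 fold change of 0.97 ± 0.174 (edgeR FDR = 0.00144) and in null Tg(Kat6b) vs. Kat6a-null embryos by 0.60 ± 0.177 (edgeR FDR = 0.0449). The second call was lost in 7 of 16 fits that left out 1 embryo, namely wild-type replicate 3, Kat6a-null replicate 2, 3 or 4, Tg(Kat6b) replicate 3, or null Tg(Kat6b) replicate 2 or 4. Against wild type the log2 fold changes were -0.42 ± 0.182 in Kat6a-null (edgeR FDR = 0.276) and 0.55 ± 0.175 in Tg(Kat6b) embryos (edgeR FDR = 0.211). Without surrogate variables neither comparison with Kat6a-null embryos was called. The log2 fold changes were then 0.66 ± 0.491 in Tg(Kat6b) vs. Kat6a-null (edgeR FDR = 0.451) and 1.15 ± 0.477 in null Tg(Kat6b) vs. Kat6a-null embryos (edgeR FDR = 0.194), with larger standard errors.

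Nkx1-2 was the lowest of the 3 genes. It was at 3.87, 6.63, 3.48 and 2.47 CPM in wild-type embryos and at 3.87, 2.84, 2.54 and 3.13 CPM in Kat6a-null embryos. It was at 5.00, 5.84, 4.54 and 4.41 CPM in Tg(Kat6b) and at 4.36, 7.87, 4.19 and 7.40 CPM in null Tg(Kat6b) embryos. Each of the 8 embryos with the transgene was above every Kat6a-null embryo, while the wild-type range covered all Kat6a-null and Tg(Kat6b) embryos and 2 of the 4 null Tg(Kat6b) embryos. Nkx1-2 was upregulated in null Tg(Kat6b) vs. Kat6a-null embryos by a log2 fold change of 0.65 ± 0.140 (edgeR FDR = 0.00829) and was higher in Tg(Kat6b) vs. Kat6a-null embryos by 0.84 ± 0.138 (edgeR FDR = 0.000498). The first was also called without surrogate variables (0.97 ± 0.252, edgeR FDR = 0.0422), the only call among the members that was, and the second was not (0.68 ± 0.258, edgeR FDR = 0.107). Both were called in 16 of 16 fits that left out 1 embryo. Against wild type the log2 fold changes were -0.41 ± 0.143 in Kat6a-null (edgeR FDR = 0.161), 0.43 ± 0.139 in Tg(Kat6b) (edgeR FDR = 0.214) and 0.24 ± 0.140 in null Tg(Kat6b) embryos (edgeR FDR = 0.496).

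**Figure D2:**
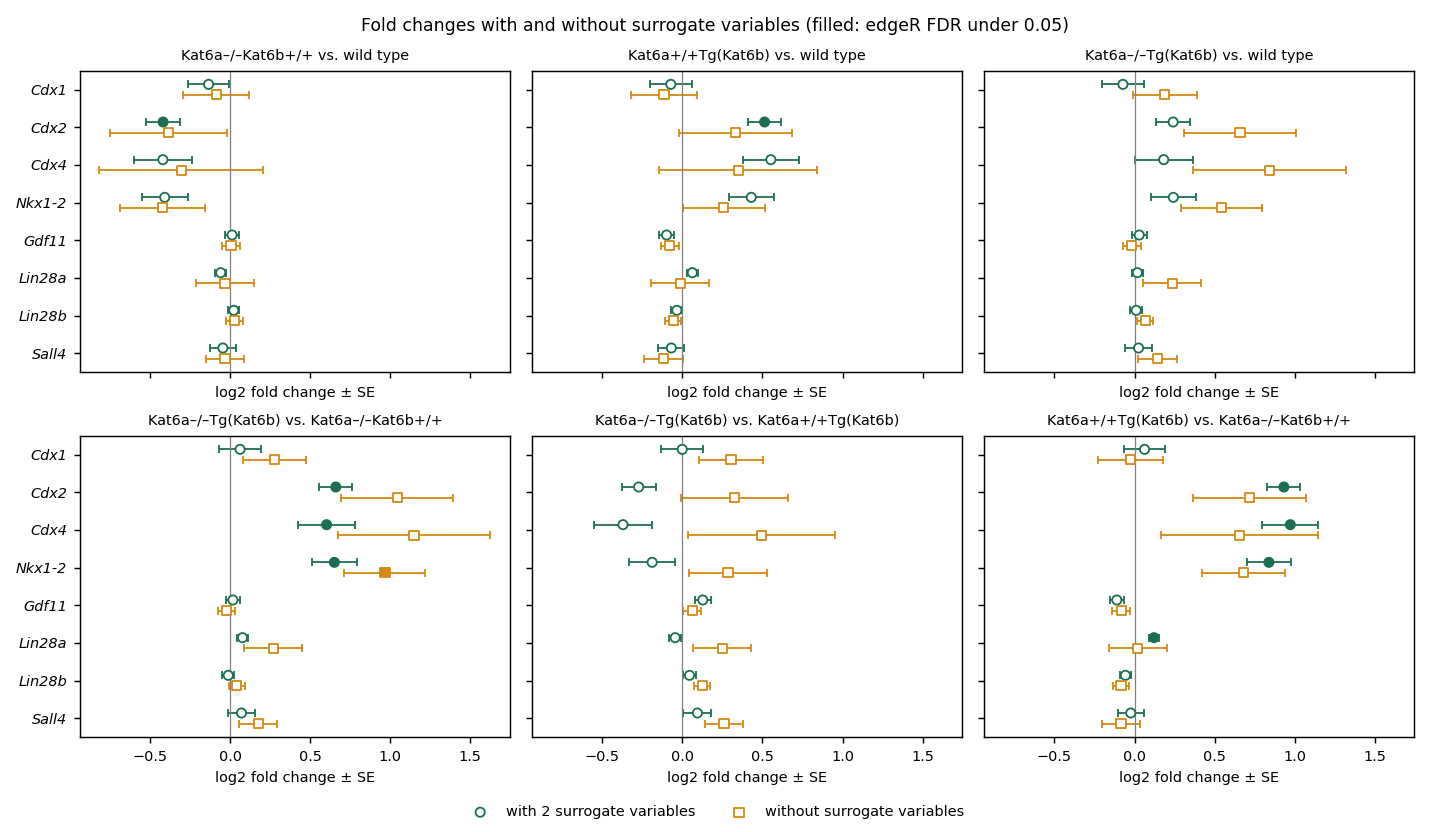
Log2 fold change ± SE (x axis) of the 8 genes (y axis) in the 6 pairs of genotypes, with 2 surrogate variables (circles) and without (squares), filled where the edgeR FDR is under 0.05. Cdx2, Cdx4 and Nkx1-2 are filled circles in the comparisons of transgenic with Kat6a-null embryos, and the filled square is Nkx1-2 in null Tg(Kat6b) vs. Kat6a-null.

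The promoters of these 3 genes are shown because the genes were called together in the comparisons with Kat6a-null embryos. Each run is the 250 bases before the annotated start, 5′ to 3′ on the strand of the gene, from RefSeq for build GRCm38.p6, which matched 6 of the 8 genes. The Cdx2 window is chr5:147307250-147307499 (minus strand), the Cdx4 window chrX:103321148-103321397 (plus strand) and the Nkx1-2 window chr7:132599638-132599887 (minus strand). Capitals mark the CCAAT box (CCAAT on either strand, so also ATTGG) and the octamer ATGCAAAT, and no capitals overlap.
Cdx2: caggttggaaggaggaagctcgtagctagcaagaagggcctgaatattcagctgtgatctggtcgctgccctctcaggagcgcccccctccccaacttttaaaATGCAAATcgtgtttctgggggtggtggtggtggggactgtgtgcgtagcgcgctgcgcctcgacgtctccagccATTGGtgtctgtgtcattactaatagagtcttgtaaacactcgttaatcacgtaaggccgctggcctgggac
Cdx4: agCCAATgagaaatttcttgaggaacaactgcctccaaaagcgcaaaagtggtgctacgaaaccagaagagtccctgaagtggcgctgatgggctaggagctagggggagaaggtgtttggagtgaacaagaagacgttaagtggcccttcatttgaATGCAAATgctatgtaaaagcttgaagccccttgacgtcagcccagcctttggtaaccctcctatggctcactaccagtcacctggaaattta
Nkx1-2: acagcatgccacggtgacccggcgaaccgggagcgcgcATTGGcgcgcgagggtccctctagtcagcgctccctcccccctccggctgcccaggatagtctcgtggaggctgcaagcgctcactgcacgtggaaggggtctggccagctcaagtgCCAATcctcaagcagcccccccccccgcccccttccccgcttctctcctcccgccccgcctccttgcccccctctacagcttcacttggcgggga

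A CCAAT box was found in all 3 windows, with 1 match in Cdx2, 1 in Cdx4 and 2 in Nkx1-2, and 34.5% of 27025 promoter windows of this length hold at least 1. It is not particular to them, since the Gdf11 window held 2 matches and the Lin28b window 1, while the Lin28a window held none. The octamer, the sequence bound by POU proteins, was searched for after it had been seen in the sequences. It stands once in the Cdx2 and once in the Cdx4 window, beginning 147 and 93 bases before the start, is not in the Nkx1-2 window, and is in 1.61% of all windows. Neither TTTAT, the core of the CDX recognition site (38.1% of windows), nor the TCF/LEF sites CTTTGAT or CTTTGTT (8.04%) was in the Cdx2, Cdx4 and Nkx1-2 windows on either strand. TTTAT was in the Gdf11 and Lin28b windows, with 1 and 2 matches, and not in the Lin28a window. The windows differed in base composition, with a GC content of 55.2% in Cdx2, 48.4% in Cdx4 and 69.6% in Nkx1-2 against a median of 52% over all windows.

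Cdx1, the third caudal gene and a direct target of retinoic acid and WNT signals, did not share these calls. It was at 4.39 to 6.05 CPM in wild-type, 3.90 to 5.58 in Kat6a-null, 3.46 to 5.37 in Tg(Kat6b) and 4.10 to 7.64 in null Tg(Kat6b) embryos. All groups overlapped, and the log2 fold changes were -0.13 ± 0.127 in Kat6a-null vs. wild-type (edgeR FDR = 0.659), -0.07 ± 0.129 in Tg(Kat6b) vs. wild-type (edgeR FDR = 0.899) and 0.06 ± 0.129 in null Tg(Kat6b) vs. Kat6a-null embryos (edgeR FDR = 0.819). The lowest count of Cdx1 in an embryo was 64, a counting error of 12.5%, which limits what small change could be seen.

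Gdf11, the TGF-β family ligand of the trunk-to-tail switch, was at 67.0 ± 4.75 CPM in wild-type, 67.2 ± 2.37 in Kat6a-null, 63.5 ± 4.09 in Tg(Kat6b) and 66.3 ± 3.16 in null Tg(Kat6b) embryos (SD, n = 4). None of its comparisons passed, and the largest log2 fold change between 2 genotypes was 0.13 ± 0.0484 in null Tg(Kat6b) vs. Tg(Kat6b) embryos (edgeR FDR = 0.147). Exons of Sarnp on the opposite strand cover 10.6% of its exon bases, and since the kit does not mark strand, reads there cannot be told apart.

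Lin28a was at 330, 388, 277 and 266 CPM in wild-type embryos and at 378, 314, 259 and 282 CPM in Kat6a-null embryos. It was at 355, 325, 270 and 300 CPM in Tg(Kat6b) and at 295, 456, 293 and 440 CPM in null Tg(Kat6b) embryos. All genotypes overlapped, and the high embryos were those that were high for Cdx2. Lin28a was higher in Tg(Kat6b) vs. Kat6a-null embryos by a log2 fold change of 0.12 ± 0.0328 (edgeR FDR = 0.0176), a call lost without surrogate variables (0.02 ± 0.181, edgeR FDR = 0.963). It was also lost in 6 of 16 fits that left out 1 embryo, namely wild-type replicate 2, 3 or 4, Kat6a-null replicate 4, Tg(Kat6b) replicate 3 or null Tg(Kat6b) replicate 4. In null Tg(Kat6b) vs. Kat6a-null embryos it was 0.08 ± 0.0337 (edgeR FDR = 0.171), and it passed in 4 of 16 such fits, those without wild-type replicate 2, Kat6a-null replicate 1, Tg(Kat6b) replicate 1 or null Tg(Kat6b) replicate 1.

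Lin28b, its paralogue, ranged from 184 to 230 CPM and Sall4 from 82.0 to 127 CPM, and neither was called in any comparison. The Lin28b values of Kat6a-null embryos (205 to 209 CPM) lay above those of Tg(Kat6b) embryos (191 to 198 CPM) without overlap, at a log2 fold change of -0.06 ± 0.0350 for Tg(Kat6b) vs. Kat6a-null (edgeR FDR = 0.314). For Sall4 the largest log2 fold change between 2 genotypes was 0.09 ± 0.0870 in null Tg(Kat6b) vs. Tg(Kat6b) embryos (edgeR FDR = 0.610). Opposite-strand exons cover 11.0% of the exon bases of Sall4, 16.3% of Nkx1-2 and 6.27% of Lin28a, by GENCODE for GRCm39.

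Counted over the 8 genes, 1 was called (lower) in Kat6a-null vs. wild-type embryos, where 1.88% of all tested genes were called, and 1 (higher) in Tg(Kat6b) vs. wild-type, where 0.140% were. In null Tg(Kat6b) vs. Kat6a-null embryos 3 were called, all higher, against 7.14% of all genes, and in Tg(Kat6b) vs. Kat6a-null embryos 4, all higher, against 12.7%. No member was called in null Tg(Kat6b) vs. wild-type (0.670% of all genes) or null Tg(Kat6b) vs. Tg(Kat6b) embryos (3.41%), by edgeR, DESeq2 or limma-voom, and 1 and 2 members had an unadjusted edgeR p under 0.05, as did 12.7% and 18.9% of all genes. The test of whether Kat6a loss acted differently with the transgene called 0 members by the same 3 tools (0.153% of all genes by edgeR), with 0 members and 14.6% of all genes at an unadjusted p under 0.05. The median log2 fold change of the 8 genes was -0.10 in Kat6a-null vs. wild-type and 0.07 in null Tg(Kat6b) vs. Kat6a-null embryos, beside 0.00 over all genes in both.

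Groups without overlap in CPM were counted as well, over the members and over all genes. Nkx1-2 did not overlap in null Tg(Kat6b) vs. Kat6a-null embryos, where 15.2% of all genes did not, and Nkx1-2 and Lin28b did not in Tg(Kat6b) vs. Kat6a-null embryos, against 15.8%. In Kat6a-null vs. wild-type (7.97%), Tg(Kat6b) vs. wild-type (4.00%), null Tg(Kat6b) vs. wild-type (7.10%) and null Tg(Kat6b) vs. Tg(Kat6b) embryos (10.5%), 0 of the 8 genes had groups without overlap.

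Several members varied widely between embryos of the same genotype. Replicates 2 and 4 of null Tg(Kat6b) were the 2 highest of the 16 embryos for 7 of the 8 genes, all but Gdf11. The SD of log2 CPM within genotypes was 0.727 for Cdx4, 0.516 for Cdx2, 0.406 for Nkx1-2, 0.319 for Cdx1 and 0.259 for Lin28a, beside a median of 0.118 over all genes. Among genes within 0.25 log2 CPM of its own level, Cdx4 exceeded 99.6%, Cdx2 99.2%, Lin28a 98.8%, Sall4 97.8% and Nkx1-2 95.1% of them. Gdf11 (0.0827) and Lin28b (0.0803) were below the median of all genes but above 66.3% and 78.2% of the genes of their own level. The embryos with most Cdx2, null Tg(Kat6b) replicates 2 and 4 and wild-type replicate 2, had the lowest summed levels of 11 neuron markers, at 196, 198 and 253 CPM, while the other 13 embryos ranged from 287 to 393 CPM. The same 3 embryos had the lowest values of the second surrogate variable, at -0.41, -0.33 and -0.48, against -0.18 to 0.37 in the others. The females among the null Tg(Kat6b) embryos are replicates 2 and 4. The wild-type females, replicates 3 and 4, were instead low for Cdx2, Cdx4 and Nkx1-2. The Kat6a-null females, replicates 1 and 2, both of litter 801, were above both males for Cdx2 and Cdx4 but not for Nkx1-2. Among Tg(Kat6b) embryos the sexes overlapped for these 3 genes. The first surrogate variable separated the sexes, at -0.28 to -0.22 in males and 0.18 to 0.30 in females. The main fit thus also adjusts for sex, and a fit with sex as a covariate is given in the closing section. The part of neuron content, developmental stage or sex in the differences between embryos of the same genotype was not tested.

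**Figure D3:**
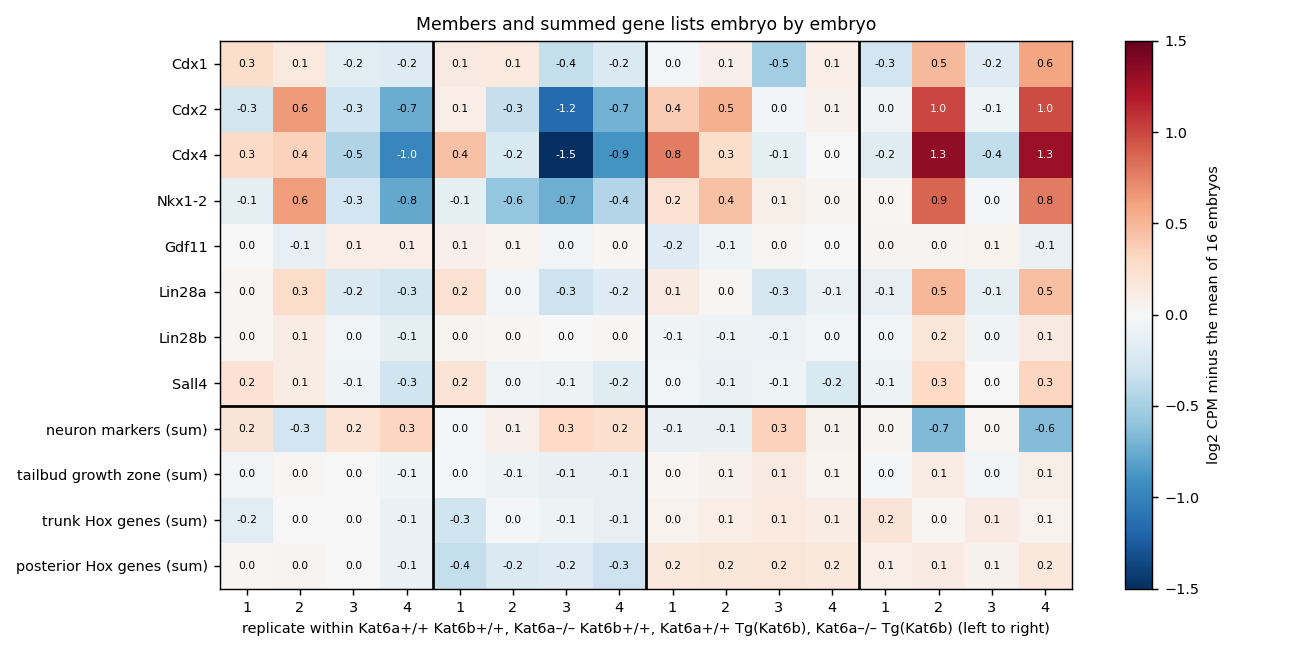
Log2 CPM minus the mean over 16 embryos (colour and number) for the 8 genes and for the summed CPM of 4 gene lists (rows), in the embryos of each genotype (columns). Cdx1, Cdx2, Cdx4, Nkx1-2 and Lin28a are red in null Tg(Kat6b) replicates 2 and 4, where the neuron marker sum is blue, while posterior Hox genes are blue in all 4 Kat6a-null embryos.

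The genes most like each member in pattern, by the root mean square difference of centred log2 CPM over the 16 embryos among 12944 genes, were often other members. Nearest to Cdx2 were Nkx1-2 (0.176), Evx1os (0.267) and Cdx4 (0.287). Nearest to Nkx1-2 were Cdx2 and Evx1os (0.236), and nearest to Cdx4 were Cdx2, Nkx1-2 (0.403) and Evx1 (0.405). Evx1 is a posterior homeobox gene and Evx1os its antisense transcript, whose reads cannot be told apart where their exons overlap. Lin28a was nearest to Rhpn2 (0.0728), Nr6a1 (0.0857) and Slc2a1 (0.118), and Cdx1 was nearest to Lin28a (0.141), Kcng1 (0.146) and Ifitm1 (0.151). Sall4 was nearest to Rps6ka1, Aldoa and Gprc5c (0.0799 to 0.102), Gdf11 to Ipo9, Tut7 and Zfp319 (0.0448 to 0.0534), and Lin28b to Nol9, Ipo5 and Nsun2 (0.0325 to 0.0350). All genes of an embryo were read from the same library, and these distances describe the 16 libraries.

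Within litters the direction held for the transgene. Each of the 4 Tg(Kat6b) embryos was above the wild-type embryo of its litter for Cdx2, Cdx4 and Nkx1-2. The wild-type embryos of litters 2597 and 2598, replicates 3 and 4, were themselves low. From the highest of the 16 embryos they ranked 12 and 15 for Cdx2, 13 and 15 for Cdx4, and 12 and 16 for Nkx1-2. Both are female, while Tg(Kat6b) replicates 1 and 3 are male. For Cdx2 the mean of 3 Tg(Kat6b) embryos was 1.54 times the wild-type embryo in litter 2597, and the single Tg(Kat6b) embryo was 1.77 times it in litter 2598. For Nkx1-2 these ratios were 1.47 and 1.78, and for Cdx4 1.75 and 2.01. The Kat6a-null embryos were less uniform. Both of litter 801 are female and both of litter 803 male, beside a male wild-type embryo in each litter. Litter and sex therefore cannot be told apart among the Kat6a-null embryos. In litter 803 both were far below the wild-type embryo, whose level is among the highest, with ratios of 0.337 for Cdx2, 0.342 for Cdx4 and 0.428 for Nkx1-2. In litter 801 the ratios were 1.13 for Cdx2, 0.902 for Cdx4 and 0.866 for Nkx1-2. Counted by embryo, 3 of 4 were below for Cdx2 and Cdx4 and 4 of 4 for Nkx1-2, Cdx1 and Sall4, although Kat6a-null replicate 1 and its wild-type littermate were both at 3.87 CPM for Nkx1-2. Gdf11 was above the wild-type littermate in 4 of 4 Kat6a-null embryos and below it in 4 of 4 Tg(Kat6b) embryos, by ratios of 1.05 and 1.08 and of 0.884 and 0.939. With litter as a block and no surrogate variables, in the 12 embryos of these 4 litters, the log2 fold changes of Cdx2 were -0.73 ± 0.362 in Kat6a-null vs. wild-type and 0.69 ± 0.388 in Tg(Kat6b) vs. wild-type embryos (edgeR FDR = 0.717 and 0.999). With 1 wild-type embryo per litter, this fit leaves few degrees of freedom.

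**Figure D4:**
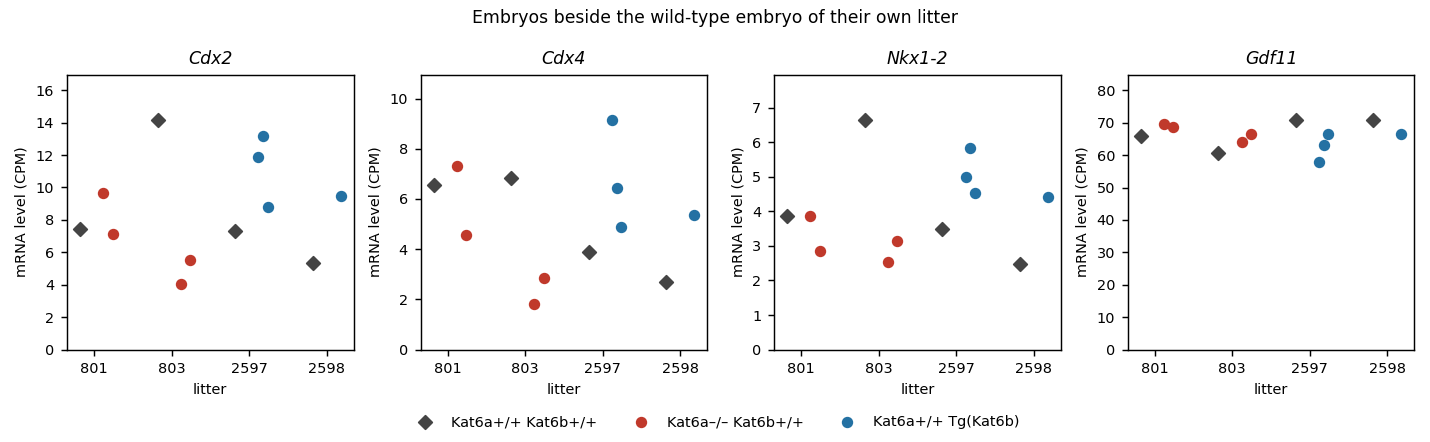
CPM (y axis, from 0) of Cdx2, Cdx4, Nkx1-2 and Gdf11 in the 4 litters that hold a wild-type embryo (x axis), with the wild-type embryo as diamond and its littermates as circles. Every Tg(Kat6b) circle of litters 2597 and 2598 is above its diamond for Cdx2, Cdx4 and Nkx1-2 and below it for Gdf11.

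Among 30 further genes of the tailbud growth zone, 1 rose and 1 fell in Kat6a-null vs. wild-type embryos, 1 rose in Tg(Kat6b) vs. wild-type, 3 rose in null Tg(Kat6b) vs. Kat6a-null, and 10 rose and 1 fell in Tg(Kat6b) vs. Kat6a-null embryos. A further 4 fell in null Tg(Kat6b) vs. Tg(Kat6b) embryos and 1 in null Tg(Kat6b) vs. wild-type. Wnt5a, a WNT ligand of the tailbud, was downregulated in Kat6a-null vs. wild-type embryos (-0.32 ± 0.053, edgeR FDR = 0.00216) and upregulated in null Tg(Kat6b) vs. Kat6a-null (0.43 ± 0.055, edgeR FDR = 9.58e-05), in both cases without overlap of the groups. Notum, an extracellular WNT inhibitor, rose in Kat6a-null vs. wild-type embryos (0.53 ± 0.132, edgeR FDR = 0.0398). T, the brachyury gene of mesoderm progenitors, rose in Tg(Kat6b) vs. wild-type embryos (0.59 ± 0.114, edgeR FDR = 0.0423), although its CPM values overlapped. The median log2 fold change of the list was 0.22 in Tg(Kat6b) vs. Kat6a-null embryos beside 0.00 over all genes.

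Of the 8 trunk Hox genes, usual targets of CDX proteins, 2 fell in Kat6a-null vs. wild-type embryos, 5 rose in null Tg(Kat6b) vs. Kat6a-null, and 4 rose and 1 (Hoxa7) fell in Tg(Kat6b) vs. Kat6a-null. Hoxa6 fell in Kat6a-null vs. wild-type embryos by 0.62 ± 0.094 on the log2 scale (edgeR FDR = 0.001) and rose in null Tg(Kat6b) vs. Kat6a-null by 0.69 ± 0.096 (edgeR FDR = 0.000236). Of 15 posterior Hox genes tested, 2 fell in Kat6a-null vs. wild-type embryos (Hoxb9 and Hoxa10), 3 rose in null Tg(Kat6b) vs. wild-type, 6 rose in null Tg(Kat6b) vs. Kat6a-null, 7 rose in Tg(Kat6b) vs. Kat6a-null and 1 fell in null Tg(Kat6b) vs. Tg(Kat6b). Hoxa10 was at 12.2 CPM in Kat6a-null, 15.4 in wild-type, 19.5 in Tg(Kat6b) and 20.7 in null Tg(Kat6b) embryos on average. The summed CPM of the posterior list was 193 to 215 in Kat6a-null, 230 to 253 in wild-type, 259 to 274 in null Tg(Kat6b) and 274 to 278 in Tg(Kat6b) embryos. For null Tg(Kat6b) replicates 1 to 4 this sum was 264, 268, 259 and 274 CPM. The summed CPM of the trunk list in the same embryos was 203, 182, 194 and 185. It was 145 to 174 in Kat6a-null, 159 to 179 in wild-type and 184 to 197 in Tg(Kat6b) embryos.

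**Figure D5:**
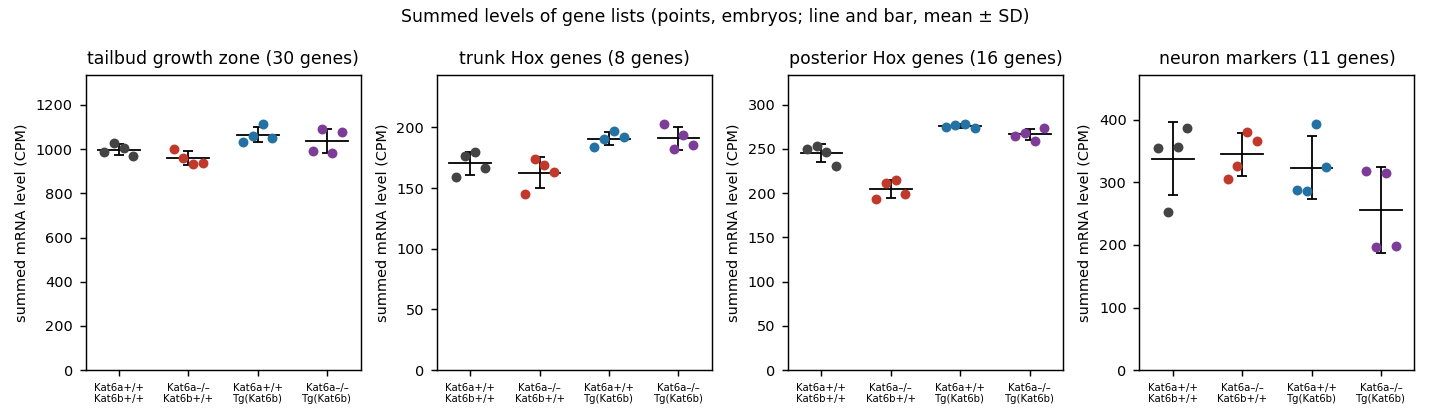
Summed CPM (y axis, from 0) of 4 gene lists in the 16 embryos (points, by genotype on the x axis), with mean and SD. The posterior Hox sum of the Kat6a-null embryos (193 to 215 CPM) lies below every other embryo, and the neuron marker sum is lowest in 2 null Tg(Kat6b) embryos (196 and 198 CPM).

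Of 12 GDF11 pathway genes tested, Wfikkn1, which encodes a secreted inhibitor of GDF11 and myostatin, rose in Kat6a-null vs. wild-type embryos (0.26 ± 0.060, edgeR FDR = 0.0291) and fell in null Tg(Kat6b) vs. Kat6a-null (-0.36 ± 0.062, edgeR FDR = 0.0017), without overlap of the groups. It also fell in Tg(Kat6b) vs. Kat6a-null embryos, together with Acvr2b, a receptor of GDF11 (-0.17 ± 0.047, edgeR FDR = 0.0189), and none of the 12 was called in the other comparisons with wild type. Of 25 genes of the LIN28 and let-7 pathway, 1 rose and 2 fell in Kat6a-null vs. wild-type embryos, 3 rose and 3 fell in null Tg(Kat6b) vs. Kat6a-null, 3 rose and 4 fell in Tg(Kat6b) vs. Kat6a-null, 1 rose and 1 fell in null Tg(Kat6b) vs. Tg(Kat6b), and 1 fell in Tg(Kat6b) vs. wild-type and in null Tg(Kat6b) vs. wild-type. Mycn, a proto-oncogene and let-7 target, fell in Kat6a-null vs. wild-type (-0.26 ± 0.043, edgeR FDR = 0.00192) and rose in null Tg(Kat6b) vs. Kat6a-null embryos (0.17 ± 0.044, edgeR FDR = 0.0248). Igf2bp1, an RNA-binding let-7 target, moved the other way (0.15 ± 0.037, edgeR FDR = 0.0348, and -0.24 ± 0.039, edgeR FDR = 0.000901). Nr6a1, a nuclear receptor of trunk elongation, fell in Kat6a-null vs. wild-type (-0.18 ± 0.044, edgeR FDR = 0.0392). Ccnd2, a cyclin, fell in Tg(Kat6b) vs. wild-type (-0.20 ± 0.0354, edgeR FDR = 0.0268), null Tg(Kat6b) vs. wild-type (-0.22 ± 0.0368, edgeR FDR = 0.00532), null Tg(Kat6b) vs. Kat6a-null (-0.27 ± 0.0364, edgeR FDR = 0.000235) and Tg(Kat6b) vs. Kat6a-null embryos (-0.24 ± 0.0355, edgeR FDR = 0.000187). Among 4 paralogues of the members that were tested, Sall1 and Sall3 fell in Kat6a-null vs. wild-type embryos (-0.20 ± 0.052, edgeR FDR = 0.0474, and -0.29 ± 0.068, edgeR FDR = 0.0294). In the comparisons given for them, the CPM values of the groups overlapped for Mycn, Nr6a1, Sall1 and Sall3. They did not overlap for Igf2bp1 and Ccnd2. Fits without surrogate variables are given gene by gene for the members only.

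Markers of other cell types were counted on the same comparisons. Of 11 neuron markers, 1 fell in null Tg(Kat6b) vs. wild-type and 1 in null Tg(Kat6b) vs. Tg(Kat6b) embryos. Among them 5 fell in null Tg(Kat6b) vs. Kat6a-null and 6 fell and 1 rose in Tg(Kat6b) vs. Kat6a-null embryos, the comparisons in which Cdx2, Cdx4 and Nkx1-2 were higher. Tubb3 fell by 0.36 ± 0.053 on the log2 scale in the first (edgeR FDR = 0.000492). Their summed level ranged from 306 to 380 CPM in Kat6a-null and from 196 to 317 CPM in null Tg(Kat6b) embryos, beside 253 to 386 in wild-type and 287 to 393 in Tg(Kat6b). Of 10 gut endoderm markers, a tissue that also uses Cdx2, 3 rose in null Tg(Kat6b) vs. Kat6a-null embryos, 2 in Tg(Kat6b) vs. Kat6a-null and 1 in null Tg(Kat6b) vs. wild-type, with summed levels of 226 to 273 CPM in Kat6a-null and 265 to 325 CPM in null Tg(Kat6b) embryos, beside 233 to 262 in wild-type and 216 to 292 in Tg(Kat6b). Of 10 trophoblast markers, another site of Cdx2, Tpbpa had 0 counts in every embryo and Prl3d1, Prl2c2 and Gcm1 at most 3. Of 4 tested, Hand1 rose in null Tg(Kat6b) vs. Kat6a-null embryos (1.16 ± 0.228, edgeR FDR = 0.0151), a gene that heart and lateral mesoderm also use. The trophoblast sum was 23.7 to 28.8 CPM in Kat6a-null and 38.5 to 46.8 CPM in null Tg(Kat6b) embryos, beside 36.1 to 38.3 in wild-type and 26.9 to 39.0 in Tg(Kat6b) embryos. The yolk sac endoderm sum was 18.3 to 25.8 CPM in Kat6a-null and 46.1 to 63.6 CPM in null Tg(Kat6b) embryos, while wild-type (20.5 to 64.4 CPM) and Tg(Kat6b) embryos (8.91 to 57.0 CPM) overlapped both ranges. In Kat6a-null and null Tg(Kat6b) embryos the germ cell sum was 12.7 to 16.7 and 12.9 to 15.5 CPM. By edgeR no yolk sac endoderm marker of 7 tested and no germ cell marker of 6 tested passed. Of 7 myotome markers tested, 1 rose and 1 fell in Tg(Kat6b) vs. Kat6a-null embryos. The part of neurons, gut or yolk sac endoderm in the Cdx2, Cdx4 and Nkx1-2 differences was not tested.

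On the GRCm39 annotation Cdx2 lies on chromosome 5 from 147237615 to 147244091, Cdx4 on chromosome X from 102365004 to 102374815, Nkx1-2 on chromosome 7 from 132196561 to 132201366 and Lin28a on chromosome 4 from 133730641 to 133746173. Gdf11 lies on chromosome 10 from 128718164 to 128727747 and Lin28b on the same chromosome from 45252646 to 45362557. Sall4 lies on chromosome 2 from 168590252 to 168609863 and Cdx1 on chromosome 18 from 61151934 to 61169314. All 8 are protein-coding genes, and none shares exon bases with another gene on its own strand.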

How the data were processed

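RNA from 16 whole E9.5 embryos was sequenced by the authors as paired-end TruSeq libraries and aligned to mm39 with Rsubread, and per the labels the submitters' processing notes also name bcl2fastq and featureCounts. The authors deposited counts, whole numbers of reads per gene and embryo without normalization, for 26411 genes with their lengths. The annotation release, strand setting and handling of shared reads are not given in the sources used here. Genotype, replicate, sex and litter come from the labels.

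Counts were analysed in R 4.3.3 with edgeR 4.0.16, whose filterByExpr defaults (minimum count 10, minimum total 15) kept 15679 genes. TMM factors were 0.985 to 1.02. sva 3.50.0 gave 2 surrogate variables (at most 4, 20 permutations) from log2 CPM with prior count 2 and genotype protected. A robust quasi-likelihood fit over all 16 embryos gave each contrast, with Benjamini-Hochberg adjustment over all tested genes and a threshold of 0.05. limma 3.58.1 and DESeq2 1.42.0 were alternatives, with no or 1 surrogate variable, other filters, covariates, blocks and embryos left out. The tests were checked on simulated data for Kat6a-null vs. wild-type only and without surrogate variables. That check does not cover the fit with surrogate variables. The members, gene lists and tests were chosen with earlier results of these data known. The named genes are the members, up to 4 genes per list called in most comparisons, and the 3 genes nearest each member in pattern among genes whose mean log2 CPM reached 1. Some genes under this rule are not reported here. Genes named with no value outside this rule were chosen after their values were seen. Each embryo is a separate animal. Same-numbered embryos did not deviate together, so numbers were not treated as pairs. Replicate libraries differed by more than sampling noise. Counting errors cover reads, not molecules.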

Additional observations from a re-analysis of the deposited data

Results flagged for a closer look

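Of 32 groups of 4 embryos, 1 for each of the 8 genes and 4 genotypes, 2 held an embryo far from the others by Dixon's test, and chance alone flags about 1 in 20 groups. Gdf11 in null Tg(Kat6b) replicate 4 was at 61.6 CPM, where the nearest embryo of the group was at 67.7 CPM. Lin28b in Kat6a-null replicate 1 was at 208.9 CPM, where the nearest was at 205.1 CPM and the whole group spans a narrow range. The pair of high null Tg(Kat6b) embryos for Cdx2 was not singled out by this test, which looks for 1 embryo at a time.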

How the results depend on the processing

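The count of members called in Kat6a-null vs. wild-type embryos, 1 (Cdx2), was 0 without surrogate variables, with 1 surrogate variable, with limma-voom, without a filter, with at least 10 counts in every embryo, with sex as a covariate, with replicate number or litter as a block, in a fit of only the 2 genotypes and at a threshold of 0.01. The count in Tg(Kat6b) vs. wild-type, also 1 (Cdx2), was 0 under the same settings except no filter, where it was 1, and was 0 with DESeq2's size factors too. In null Tg(Kat6b) vs. wild-type it went from 0 to 1 (Cdx2) without a filter. In null Tg(Kat6b) vs. Kat6a-null it went from 3 to 1 without or with 1 surrogate variable and in a fit of only the 2 genotypes, each time Nkx1-2, to 2 (Cdx2 and Nkx1-2) without a filter and at a threshold of 0.01, and to 0 with sex as a covariate. In Tg(Kat6b) vs. Kat6a-null it went from 4 to 0 without or with 1 surrogate variable, with sex as a covariate or with litter as a block, to 2 (Cdx2 and Nkx1-2) without a filter, to 3 (all but Lin28a) at a threshold of 0.01 and to 1 (Nkx1-2) in a fit of only the 2 genotypes. Sex as a covariate and litter as a block replaced the surrogate variables. With the replicate block the count in null Tg(Kat6b) vs. Kat6a-null was 3 and in Tg(Kat6b) vs. Kat6a-null 4, as without it. The numbers do not mark pairs: same-numbered embryos correlated at -0.255 to 0.215, and 4 of 16 correlated best with their own number. Leaving out each embryo gave 0 to 1 in Kat6a-null vs. wild-type, Tg(Kat6b) vs. wild-type and null Tg(Kat6b) vs. wild-type, 2 to 4 in null Tg(Kat6b) vs. Kat6a-null, 0 to 0 in null Tg(Kat6b) vs. Tg(Kat6b) and in the interaction, and 3 to 4 in Tg(Kat6b) vs. Kat6a-null embryos. Surrogate variables estimated without the listed genes, an alternative chosen after seeing the data, gave the same members in every comparison. No called value changed sign, though values that were never called did in places. The cause of these changes was not tested. Over all genes the calls in Kat6a-null vs. wild-type went from 295 to 95 without surrogate variables and 18 with litter as a block, in Tg(Kat6b) vs. wild-type from 22 to 5 and 1, in null Tg(Kat6b) vs. Kat6a-null from 1119 to 614 without, and in Tg(Kat6b) vs. Kat6a-null from 1984 to 1491 and 8. DESeq2 called 416, 219, 1315 and 2077. Depth limits Cdx4 and Nkx1-2 most, with lowest counts of 31 and 36.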
